A study of Cavia porcellus with 10 samples.

Results

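Complexes II to V of the mitochondrial respiratory chain were examined through 47 nuclear genes of the scleral count table, out of 17642 lines that carry a gene symbol. A rule on the gene symbol defined the members: SDHA to SDHD for complex II, CYC1 and symbols starting with UQCR for complex III, symbols starting with COX4 to COX8 for complex IV, and symbols starting with ATP5 for complex V. That gave 4, 9, 17 and 17 genes. One symbol, COX6C, stood on a further line with 0 to 8 counts per library, and its line with the highest mean was used. COX7B2, with a single count in 1 control library, was the only member too low to test, so 46 members entered the comparison. The symbols were read as given, and subunits encoded by mitochondrial DNA are not analysed here.

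RNA sequencing had been done on the sclera, the tough collagenous wall of the eyeball, of male guinea pigs (Cavia porcellus) aged 2 to 3 weeks. In the myopia group lenses that induce nearsightedness had been worn on both eyes (5 libraries), and the control animals had been left untreated (5 libraries). No label names a genotype, a strain or a duration of lens wear. Lenses were worn on both eyes and the labels tie no eye to an animal, so the p-values rest on the spread among libraries, and 2 libraries may stem from 1 animal.

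Complex II (succinate dehydrogenase) passes electrons from succinate to ubiquinone, complex III (cytochrome bc1) passes them from ubiquinol to cytochrome c, and complex IV (cytochrome c oxidase) passes them to oxygen. Complexes III and IV pump protons, and complex V (ATP synthase) uses the proton gradient to make ATP. Except in complex II, the subunits encoded in the nucleus are joined by subunits encoded in mitochondrial DNA, and several nuclear subunits have isoforms for particular tissues. The sclera is a matrix-rich tissue of fibroblasts with few vessels.

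The total count per library was 32309258 to 34055139 in myopia and 32568123 to 35430797 in control. Levels are CPM, each count relative to the size of its library, adjusted with TMM factors (a scaling that centres the bulk of genes), which were 1.11 to 1.25 in myopia and 0.777 to 0.968 in control. On the first principal component of log2 CPM (77.1% of the variance) control libraries 4 and 5 lay nearest to the myopia libraries, so that counts are also given without them. Scleral fibroblast markers were abundant, with COL1A1 at 35550 CPM in myopia and 82730 CPM in control (group means). All 15 markers of that list were measured, of which 8 fell, 3 rose (DCN, PDGFRA and Tnmd) and 4 did not pass. Of all genes tested, 35.1% were called lower and 36.9% higher. The summed level of the 15 markers was 76370 to 103800 CPM in myopia and 135000 to 171500 CPM in control. Most of that sum came from COL1A1 and COL1A2, so it mainly reports collagen I. COL1A2 stood at 30640 CPM in myopia and 37560 CPM in control (group means) and did not pass.

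Transcripts of complexes II to V were mostly lower in the myopic sclera. Of 46 members tested, 40 fell, 1 rose and 5 did not pass (edgeR quasi-likelihood test, Benjamini-Hochberg adjusted p under 0.05). Among all 14683 genes tested, 35.1% were called lower and 36.9% higher by the same rule. Levels in myopia ranged from 0.276 of control for ATP5MC1, a gene of the ATP synthase c-ring, to 1.23 times control for SDHD, an anchor of complex II. The median log2 fold change was -0.87 over the members and 0.03 over all genes tested. A log2 fold change of -1 or less was reached by 19 of the members called lower, against 12.6% of all genes. In 36 members all 5 myopia libraries lay below all 5 control libraries, where 28.0% of all genes tested did so, and in 0 members did they all lie above (29.8% of all genes tested). The members together held 0.442% to 0.550% of the counts in myopia and 0.640% to 0.778% in control. With total-count scaling the median over all genes tested moved from 0.03 to 0.47, the members' median was -0.40, and 27 members were called lower and 4 higher. Of all genes tested, 2751 were then called lower and 7633 higher. With control libraries 4 and 5 left out, a choice made with the data in view, 40 members were lower and 1 higher, with a member median of -1.03. Over all genes 10919 were then called, 52.5% of them higher. In the mean log2 level of the members these libraries were the lowest controls (-0.14 and -0.28, relative to the control mean). Leaving them out was therefore set to widen the difference, and the lower median is no further support.

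**Figure D1:**
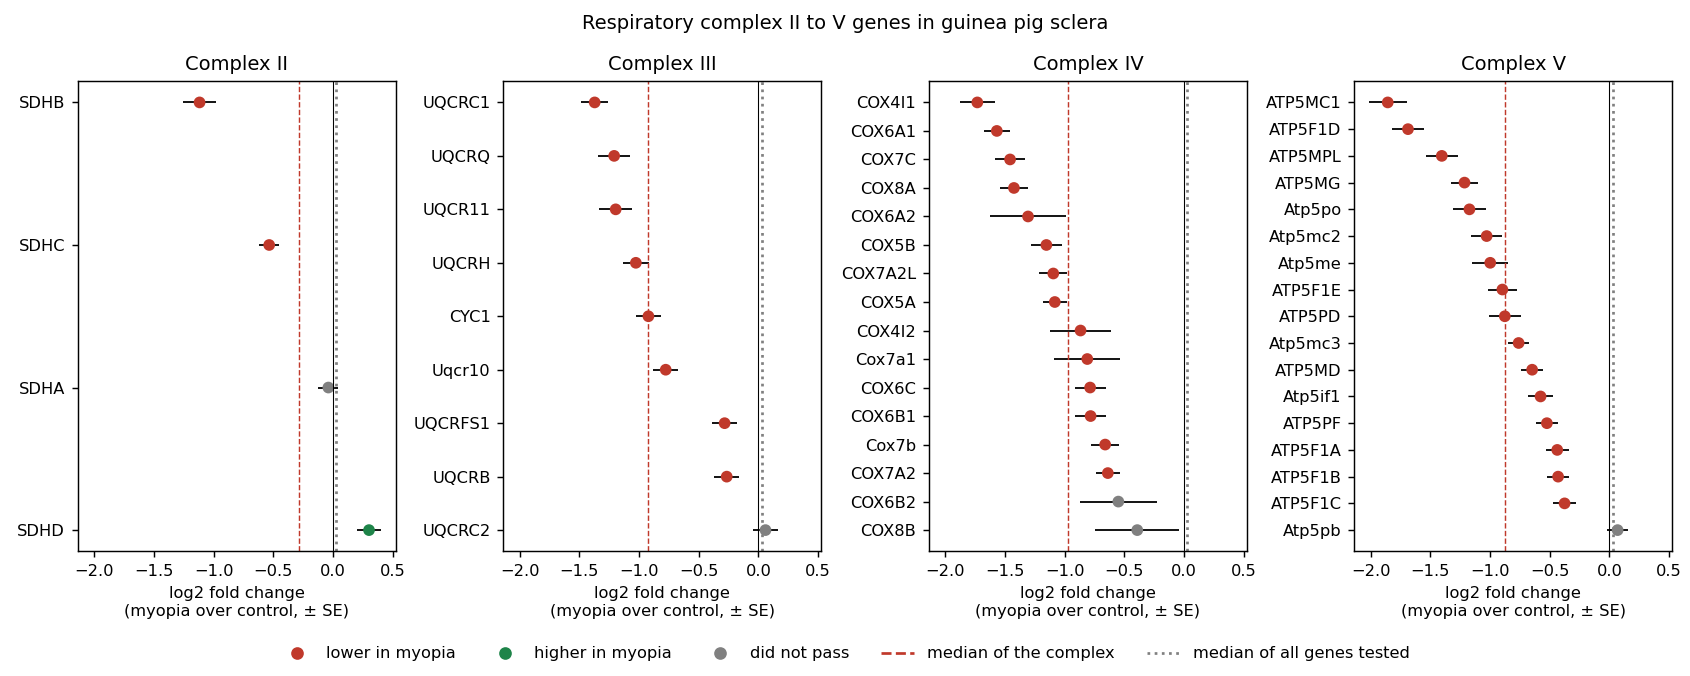
Log2 fold change of each tested member (myopia over control, horizontal axis, ± SE, 5 libraries per group), one row per gene and one panel per complex, with dashed lines at the median of the complex and dotted lines at the median of all genes tested. Most points lie left of 0, with SDHA, SDHD, UQCRC2 and Atp5pb near or above it.

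By complex, 2 of 4 complex II genes fell and 1 rose, 8 of 9 complex III genes fell, 14 of 16 tested complex IV genes fell, and 16 of 17 complex V genes fell. Among all genes tested 35.1% were called lower and 36.9% higher. With 4 genes, the complex II counts cannot be told from these shares. Median log2 fold changes were -0.29, -0.92, -0.97 and -0.88 for complexes II, III, IV and V. The mean log2 level of complex II, relative to the control mean, was -0.54 to -0.23 in the myopia libraries and -0.12 to 0.07 in the control libraries. For complex III it was -0.97 to -0.61 in myopia and -0.22 to 0.18 in control. For complex IV it was -1.24 to -0.80 in myopia and -0.36 to 0.35 in control, and for complex V -1.04 to -0.70 in myopia and -0.26 to 0.19 in control. Control library 5 was the lowest control library for every complex and control library 3 the highest, and in all 4 complexes the groups did not overlap. As a share of all counts, complex II did overlap, at 0.0387% to 0.0476% in myopia and 0.0392% to 0.0432% in control.

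**Figure D2:**
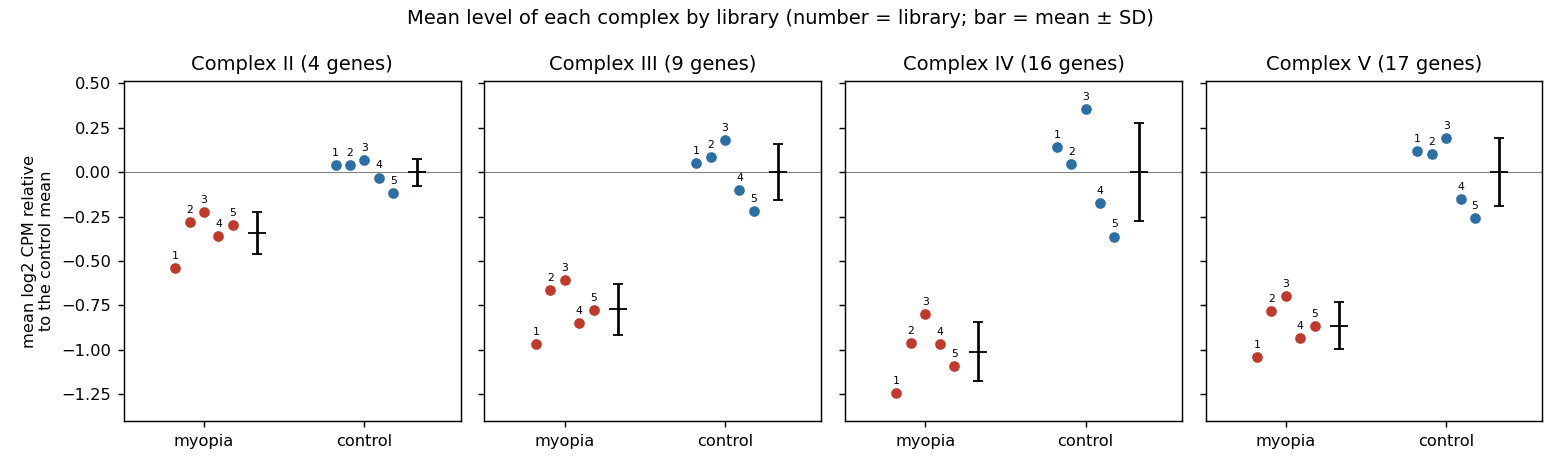
Mean log2 CPM of the tested genes of each complex relative to the control mean (vertical axis), by library, with the mean ± SD of 5 libraries beside the points. Myopia libraries lie below control libraries in each panel, by the least for complex II, where they sit at -0.54 to -0.23.

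These libraries come from whole tissue, in which fewer cells of a type and less RNA per cell cannot be told apart. The summed markers of macrophages, red blood cells and photoreceptors were lower in myopia without overlap between the groups, and those of pigment cells, vessels and adipocytes overlapped. The sum of 12 macrophage markers, of which 11 fell and 0 rose, was 456 to 681 CPM in myopia and 1445 to 2317 CPM in control. Red blood cell markers (6 of 9 listed genes measured, all 4 tested genes lower) summed to 100.4 to 456.4 CPM in myopia and 2504 to 10560 CPM in control. Photoreceptor markers (11 of 12 measured, 6 lower and 0 higher) summed to 54.4 to 229.7 CPM in myopia and 235.7 to 404.8 CPM in control. Pigment epithelium and melanocyte markers (10 measured, 3 lower and 3 higher) summed to 58.9 to 236.6 CPM in myopia and 152.5 to 438.8 CPM in control. Vessel markers (13 measured, 2 lower and 5 higher) summed to 1776 to 2587 CPM in myopia and 1722 to 2383 CPM in control. Adipocyte markers (9 measured, 4 lower and 0 higher) summed to 222 to 353.9 CPM in myopia and 216 to 448.1 CPM in control, with LEP at 0 in all libraries. Beside these lists, 35.1% of all genes tested were called lower and 36.9% higher. The part of these cell types in the levels of the respiratory genes was not tested.

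In complex II the 4 subunits moved apart. SDHB, the iron-sulfur subunit, had 50.0, 67.9, 67.2, 59.1 and 61.8 CPM in myopia libraries 1 to 5, against 147, 154, 152, 117 and 93.4 CPM in control libraries 1 to 5. It fell, with a log2 fold change of -1.12 ± 0.14 (SE; edgeR adjusted p = 1.03e-05), and every myopia library lay below every control library. SDHC, one of the membrane anchors that bind haem and ubiquinone, had 75.3, 92.4, 93.8, 87.1 and 93.3 CPM in myopia, against 137, 131, 130, 128 and 115 CPM in control. Its groups also did not overlap, and its log2 fold change was -0.53 ± 0.09 (edgeR adjusted p = 8.47e-05). SDHC did not pass with scaling by total count (-0.08, adjusted p = 0.367).

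SDHA, the flavoprotein subunit that oxidises succinate, had 149, 168, 173, 172 and 155 CPM in myopia, against 174, 177, 178, 151 and 160 CPM in control. The groups overlapped, and its log2 fold change of -0.04 ± 0.08 did not pass (edgeR adjusted p = 0.693). With scaling by total count SDHA was higher instead (0.415, adjusted p = 0.000619). SDHD, the other membrane anchor, had 59.3, 64.1, 72.1, 61.5 and 71.9 CPM in myopia, against 46.8, 46.6, 51.2, 60.2 and 61.9 CPM in control. It was the 1 member called higher (log2 fold change 0.30 ± 0.10, edgeR adjusted p = 0.0185), although control libraries 4 and 5 reached into the myopia range. Without those 2 libraries its value was 0.46 (edgeR adjusted p = 0.000389). They were left out with the data in view and hold the highest SDHD levels among the controls. Leaving them out therefore had to widen the difference, and the larger value is no further support for the call.

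The make-up of the complex II counts therefore differed between groups. SDHA held 43.2 ± 1.86% of them in myopia and 34.9 ± 1.48% in control, and SDHD 17.4 ± 1.09% in myopia and 11.2 ± 2.42% in control (mean ± SD, n = 5 each). SDHB held 16.1 ± 0.900% in myopia and 27.3 ± 3.64% in control. These shares are of reads, not of molecules, because no transcript length is applied, but they do not depend on how libraries are scaled.

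**Figure D3:**
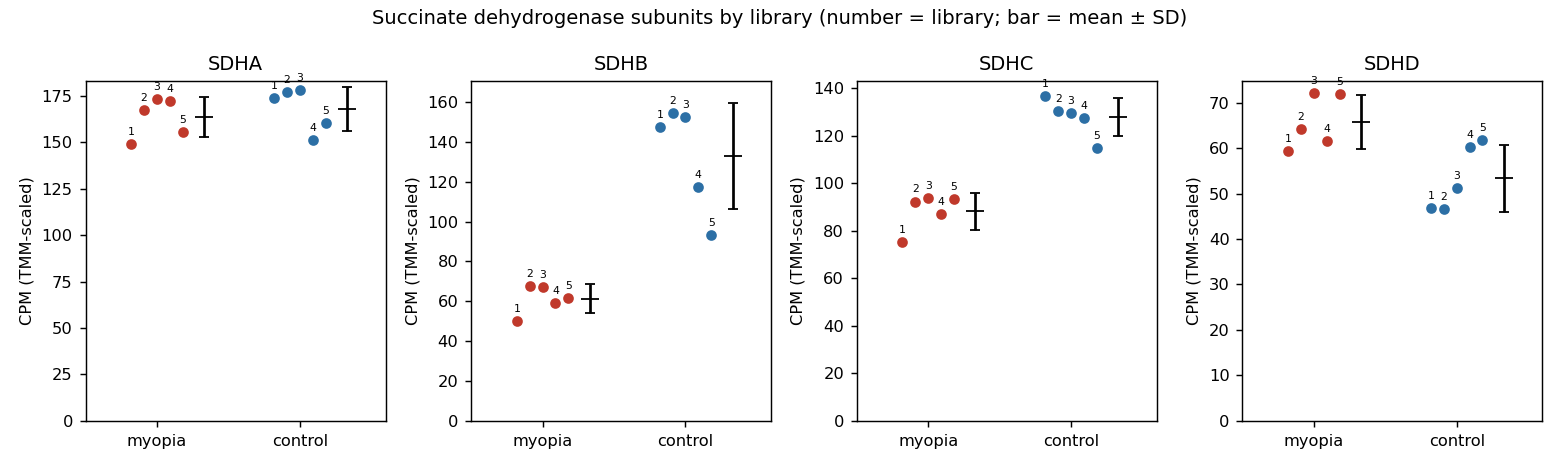
CPM of the 4 succinate dehydrogenase genes (vertical axes, from 0) in each myopia and control library, with the mean ± SD of 5 libraries beside the points. SDHB and SDHC are separated between the groups, SDHA overlaps, and SDHD is higher in myopia with control libraries 4 and 5 within the myopia range.

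In complex III the 2 core proteins differed from each other. UQCRC1, core protein on the matrix side of the complex, had 98.5, 98.4, 102, 99.4 and 98.2 CPM in myopia, against 289, 270, 302, 231 and 192 CPM in control. It had the lowest fold change of the complex (-1.37 ± 0.12 on the log2 scale, edgeR adjusted p = 6.07e-07) with no overlap, and the myopia libraries lay close together. UQCRC2, its partner core protein, had 77.7, 109, 112, 86.1 and 92.0 CPM in myopia, against 82.6, 88.8, 96.3, 93.4 and 96.2 CPM in control. These ranges overlapped and UQCRC2 did not pass (0.06 ± 0.11, edgeR adjusted p = 0.628). Its value was near 0 without myopia library 3 (-0.003) and was 0.50 with scaling by total count (adjusted p = 0.00218). UQCRC2 held 12.8 ± 0.769% of the complex III counts in myopia and 6.73 ± 1.20% in control.

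The small subunits UQCRQ and UQCR11 were next lowest. UQCRQ had 67.9, 89.9, 78.6, 74.9 and 77.3 CPM in myopia, against 211, 205, 197, 151 and 135 CPM in control. UQCR11 had 81.2, 100.2, 112, 87.5 and 102 CPM in myopia, against 253, 245, 257, 180 and 171 CPM in control. Both fell without overlap, with log2 fold changes of -1.21 ± 0.13 and -1.20 ± 0.14 (SE, 5 libraries per group). UQCRH, the hinge protein beside cytochrome c1, CYC1, which is cytochrome c1 itself, and the small subunit Uqcr10 fell with log2 fold changes of -1.03 ± 0.11, -0.92 ± 0.11 and -0.78 ± 0.10, again without overlap.

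UQCRFS1, the Rieske iron-sulfur protein, and UQCRB, a small subunit near the ubiquinone site, changed least among the complex III genes that passed. UQCRFS1 had 50.9, 62.7, 69.2, 57.2 and 52.7 CPM in myopia, against 63.7, 72.7, 83.4, 69.6 and 66.6 CPM in control (-0.28 ± 0.10, edgeR adjusted p = 0.0263). UQCRB averaged 61.2 ± 8.44 CPM in myopia and 73.6 ± 6.52 CPM in control (mean ± SD, n = 5 each; log2 fold change -0.27 ± 0.10, edgeR adjusted p = 0.034). In both genes the groups overlapped, and both calls depended on single libraries and on scaling. UQCRFS1 did not pass when control 2 was left out (-0.265, with an adjusted p of 0.0563), nor when control 3 was (-0.21, 0.09). The same held for myopia 1 (-0.24, 0.0703), for myopia 4 (-0.27, 0.0508) and for myopia 5 (-0.25, 0.0682). For UQCRB the call ended when control 3 (-0.21, adjusted p of 0.102), control 4 (-0.23, 0.0826), myopia 1 (-0.21, 0.0901), myopia 4 (-0.24, 0.0754) or myopia 5 (-0.254, 0.0681) was left out. With scaling by total count they stood at 0.16 and 0.18 and did not pass.

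All 10 subunits of complex IV that most tissues use were lower in myopia, in each case without overlap. Of all genes tested, 35.1% were called lower and 28.0% lay below control without overlap. COX4I1, a subunit on which ATP regulates the enzyme, had 222, 218, 224, 221 and 209 CPM in myopia, against 865, 836, 840, 590 and 505 CPM in control. Its log2 fold change of -1.73 ± 0.15 (edgeR adjusted p = 6.63e-07) put its level in myopia at 0.301 of control. The control libraries spread widely, with libraries 4 and 5 lowest, and the myopia libraries lay close together. COX6A1, the broadly expressed form of subunit VIa, had 112, 103, 115, 108 and 118 CPM in myopia, against 376, 370, 343, 288 and 273 CPM in control. The small membrane subunit COX7C had 127, 131, 147, 122 and 139 CPM in myopia, against 417, 422, 403, 319 and 268 CPM in control. Log2 fold changes were -1.57 ± 0.11 for COX6A1 and -1.46 ± 0.13 for COX7C (edgeR adjusted p = 1.78e-07 and 7.82e-07).

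COX8A, a small membrane subunit, fell by 1.43 ± 0.12 on the log2 scale (SE). COX5B and COX5A, which lie on the matrix side, fell by 1.15 ± 0.13 and 1.08 ± 0.10. COX6C, COX6B1, which faces the cytochrome c side, Cox7b and COX7A2 changed less, with log2 fold changes of -0.79 ± 0.13, -0.78 ± 0.13, -0.66 ± 0.12 and -0.64 ± 0.10. Of these, Cox7b (-0.21) and COX7A2 (-0.19) did not pass with total-count scaling (adjusted p = 0.0809 and 0.103). COX4I1 thus held 17.3 ± 1.47% of the complex IV counts in myopia and 24.1 ± 1.61% in control, and COX6B1 10.1 ± 0.598% in myopia and 7.37 ± 0.219% in control (mean ± SD, n = 5 each).

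COX7A2L, related to COX7A2, joins complexes III and IV into supercomplexes in the mouse. It averaged 65.3 ± 8.44 CPM in myopia and 139.5 ± 20.1 CPM in control (mean ± SD, n = 5 each; log2 fold change -1.10 ± 0.12, edgeR adjusted p = 2.96e-06), without overlap.

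Isoforms of complex IV with narrower expression were low in the sclera and varied more. COX6A2, Cox7a1 and COX8B are the forms of heart and skeletal muscle, COX6B2 and COX7B2 are mainly of testis, and COX4I2 is a form known from lung in human and rodents. COX6A2 had 18.2, 29.6, 23.9, 28.0 and 11.9 CPM in myopia, against 51.7, 39.1, 105, 47.6 and 32.4 CPM in control, and fell without overlap (-1.31 ± 0.32, edgeR adjusted p = 0.00286). Cox7a1 had 13.1, 17.3, 21.0, 17.4 and 9.32 CPM in myopia, against 23.4, 23.6, 49.2, 23.0 and 17.8 CPM in control. It passed (-0.81 ± 0.28, edgeR adjusted p = 0.0192), but not without control library 3 (-0.48, adjusted p = 0.0514) nor with scaling by total count (-0.35, adjusted p = 0.26). COX8B had 7.69, 17.1, 18.4, 11.3 and 5.03 CPM in myopia, against 12.2, 12.5, 28.1, 12.9 and 12.4 CPM in control, and did not pass (-0.39 ± 0.35, edgeR adjusted p = 0.334).

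In all 3 muscle isoforms control library 3 was the highest and myopia library 5 the lowest of the 10 libraries. The summed level of 25 skeletal muscle markers, of which 7 were called lower and 2 higher, had the same extremes. It was 5182, 8676, 7827, 7225 and 4068 CPM in myopia libraries 1 to 5 and 7208, 5237, 12840, 9621 and 6211 CPM in control libraries 1 to 5. Among those markers TNNT1, a troponin of slow muscle, and the oxygen store MB (myoglobin) fell (-1.22 ± 0.17 and -1.45 ± 0.33), and the sarcomere genes NEB (nebulin) and Ttn (titin) rose (2.28 ± 0.33 and 2.07 ± 0.37), while 16 markers did not pass. Over all genes tested, 35.1% were called lower and 36.9% higher. The part of muscle in the values of the muscle isoforms was not tested.

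**Figure D4:**
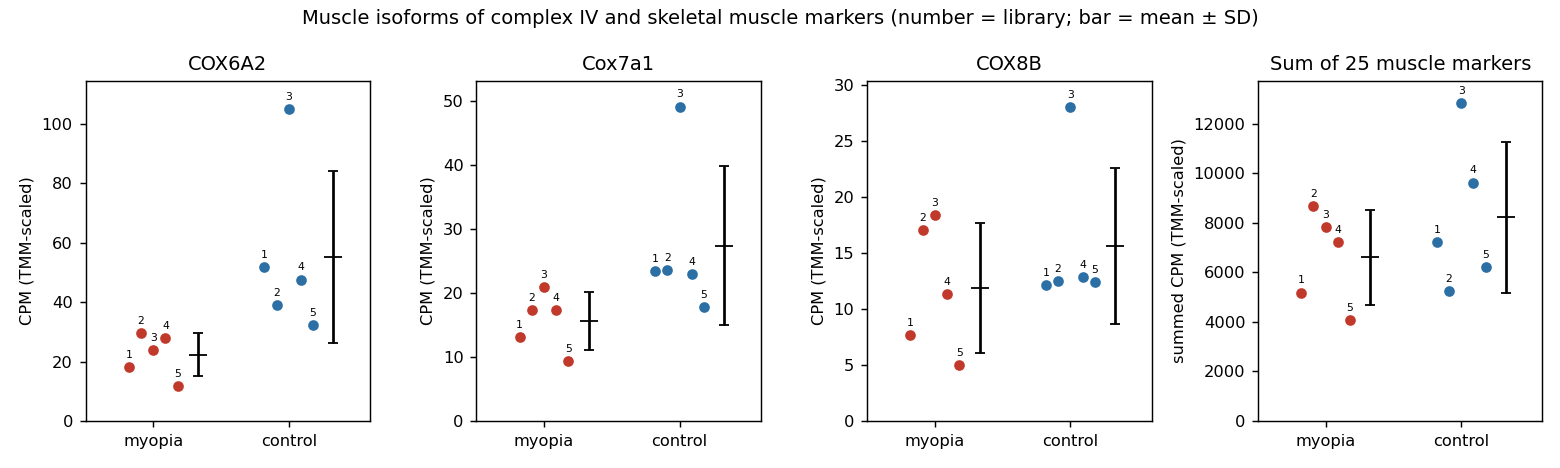
CPM of the muscle isoforms COX6A2, Cox7a1 and COX8B and summed CPM of 25 skeletal muscle markers (vertical axes, from 0) in each myopia and control library, with the mean ± SD of 5 libraries. Control library 3 is highest and myopia library 5 lowest in all 4 panels.

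COX4I2 had 6.60, 6.34, 8.24, 11.02 and 11.8 CPM in myopia, against 24.7, 14.02, 19.5, 9.94 and 12.1 CPM in control. It passed although control library 4 lay within the myopia range (-0.87 ± 0.25, edgeR adjusted p = 0.0078), and not with scaling by total count (-0.38, adjusted p = 0.188). COX6B2 averaged 2.42 ± 0.992 CPM in myopia and 3.56 ± 1.16 CPM in control (mean ± SD, n = 5 each) and did not pass (-0.55 ± 0.32, edgeR adjusted p = 0.143). It passed with limma-voom and sample quality weights (-0.72, adjusted p = 0.0435).

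ATP synthase, complex V, held both the lowest member and one of the few that were level. ATP5MC1, one of the 3 genes that encode the same mature c subunit of the rotating membrane ring, had 58.5, 59.2, 68.2, 67.9 and 58.8 CPM in myopia, against 261, 251, 291, 173 and 158 CPM in control. Its log2 fold change of -1.86 ± 0.16 (edgeR adjusted p = 6.56e-07) was the lowest of the 46 members. The other c-ring genes changed less, Atp5mc2 with -1.03 ± 0.13 and Atp5mc3 with -0.76 ± 0.09. ATP5MC1 held 3.28 ± 0.318% of the complex V counts in myopia and 6.85 ± 0.988% in control, and Atp5mc3 4.92 ± 0.170% in myopia and 4.90 ± 0.367% in control (mean ± SD, n = 5 each).

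The catalytic head was lower by less. ATP5F1A and ATP5F1B, the alpha and beta subunits that form the hexamer where ATP is made, had log2 fold changes of -0.44 ± 0.10 and -0.43 ± 0.09 (edgeR adjusted p = 0.00117 and 8.6e-04). ATP5F1A had 323, 409, 412, 361 and 368 CPM in myopia, against 493, 521, 559, 487 and 477 CPM in control, without overlap. With scaling by total count the values of ATP5F1A and ATP5F1B were 0.01 and 0.02, so their direction is relative to the TMM scale. The 3 subunits of the central stalk, which turns inside the head, spread widely. ATP5F1D (delta) had 52.9, 58.8, 57.9, 59.6 and 52.7 CPM in myopia, against 203, 201, 224, 148 and 133 CPM in control (-1.69 ± 0.14, edgeR adjusted p = 4.48e-07). ATP5F1E (epsilon) had a log2 fold change of -0.90 ± 0.12, and ATP5F1C (gamma) one of -0.38 ± 0.10, which became 0.07 with scaling by total count.

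Among the 4 peripheral stalk genes, which hold the head still, 3 fell, where 35.1% of all genes tested were called lower. Atp5po, the subunit that ties the stalk to the head, had a log2 fold change of -1.17 ± 0.14, ATP5PD (subunit d) one of -0.88 ± 0.14 and ATP5PF (coupling factor 6) one of -0.52 ± 0.09. Atp5pb, subunit b, the membrane-anchored rod of the stalk, had 110, 127, 140, 119 and 117 CPM in myopia, against 104, 114, 124, 121 and 120 CPM in control. It overlapped and did not pass (0.07 ± 0.09, edgeR adjusted p = 0.493), and with scaling by total count it was higher (0.51, adjusted p = 7.97e-04). Atp5pb held 6.39 ± 0.190% of the complex V counts in myopia and 3.62 ± 0.572% in control (mean ± SD, n = 5 each).

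All 4 accessory genes of the membrane part fell, where 35.1% of all genes tested were called lower. ATP5MPL had 54.4, 64.9, 72.4, 61.3 and 62.1 CPM in myopia, against 195, 169, 205, 142 and 124 CPM in control (-1.41 ± 0.14, edgeR adjusted p = 1.45e-06). ATP5MG and Atp5me, subunits g and e, which help ATP synthase dimers form, had log2 fold changes of -1.21 ± 0.12 and -0.999 ± 0.151, and ATP5MD one of -0.65 ± 0.09. Atp5if1, which blocks the reverse reaction of the enzyme when the proton gradient fails, averaged 64.5 ± 6.72 CPM in myopia and 96.2 ± 12.96 CPM in control (mean ± SD, n = 5 each; -0.58 ± 0.11, edgeR adjusted p = 3.15e-04). With total-count scaling Atp5if1 (-0.12), ATP5MD (-0.19) and ATP5PF (-0.07) did not pass (adjusted p = 0.246, 0.0603 and 0.413).

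Because a ratio of 2 genes within a library does not depend on library scaling, 9 pairs were compared by the log2 ratio of their counts with an exact two-sided permutation test over the libraries, adjusted over the 9 pairs. With 5 libraries a group the smallest p is 0.00794. Of single genes tested, 28.0% lay below and 29.8% above control without overlap. How often ratios of other gene pairs separate the groups was not tested. The ratios use the same counts as the fold changes above and are not separate evidence. SDHA over SDHB was 2.98, 2.47, 2.58, 2.91 and 2.51 in myopia, against 1.18, 1.15, 1.17, 1.29 and 1.71 in control. The log2 ratio was higher in myopia by 1.06 ± 0.12 (SE, n = 5 each; exact p = 0.00794, adjusted p = 0.0179), and no myopia library overlapped a control library. UQCRFS1 over UQCRC1 was 0.517, 0.637, 0.682, 0.575 and 0.536 in myopia, against 0.220, 0.269, 0.276, 0.301 and 0.347 in control. This ratio too was higher without overlap, by 1.07 ± 0.13 on the log2 scale (exact permutation p = 0.00794, adjusted p = 0.0179).

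COX7A2L over COX7A2 was 1.11, 1.09, 1.02, 0.922 and 0.836 in myopia, against 1.48, 1.52, 1.22, 1.39 and 1.19 in control. The ratio of the supercomplex gene to its paralogue was therefore lower in all 5 myopia libraries than in any control library. The mean difference was 0.45 ± 0.11 on the log2 scale (exact permutation p = 0.00794, adjusted p = 0.0179). COX4I2 over COX4I1 was 0.0297, 0.0291, 0.0369, 0.0499 and 0.0567 in myopia, against 0.0286, 0.0168, 0.0233, 0.0169 and 0.0241 in control. It was higher by 0.86 ± 0.25 (exact permutation p = 0.00794, adjusted p = 0.0179), with myopia library 2 only just above control library 1. That call did not hold without control 2 (0.77, adjusted p = 0.0714), without control 4 (0.78, adjusted p = 0.0714) or without control libraries 4 and 5 (0.80, adjusted p = 0.0643). Both genes were lower in myopia, so that the higher ratio goes with a smaller fold change of COX4I2 than of COX4I1.

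The other 5 ratios did not pass. Differences in log2 ratio were 0.95 ± 0.43 for COX8B over COX8A (exact permutation p = 0.0714, adjusted p = 0.129), 0.31 ± 0.38 for COX6A2 over COX6A1 (adjusted p = 0.582) and 0.17 ± 0.34 for COX6B2 over COX6B1 (adjusted p = 0.696). They were -0.13 ± 0.31 for Cox7a1 over COX7A2 (adjusted p = 0.698) and -0.13 ± 0.07 for Atp5if1 over ATP5F1A (adjusted p = 0.167). COX8B over COX8A passed without myopia library 5 (1.26, adjusted p = 0.0429). Atp5if1 over ATP5F1A passed without control library 5 (-0.19, adjusted p = 0.0179) and without control libraries 4 and 5 (-0.22, adjusted p = 0.0402). Myopia library 5 holds the lowest myopia ratio of COX8B over COX8A. Control libraries 5 and 4 hold the lowest control ratios of Atp5if1 over ATP5F1A. Leaving these libraries out therefore had to widen each difference, and neither call is further support. Cox7a1 over COX7A2 turned positive without control library 3 (0.08) or myopia library 5 (0.09).

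**Figure D5:**
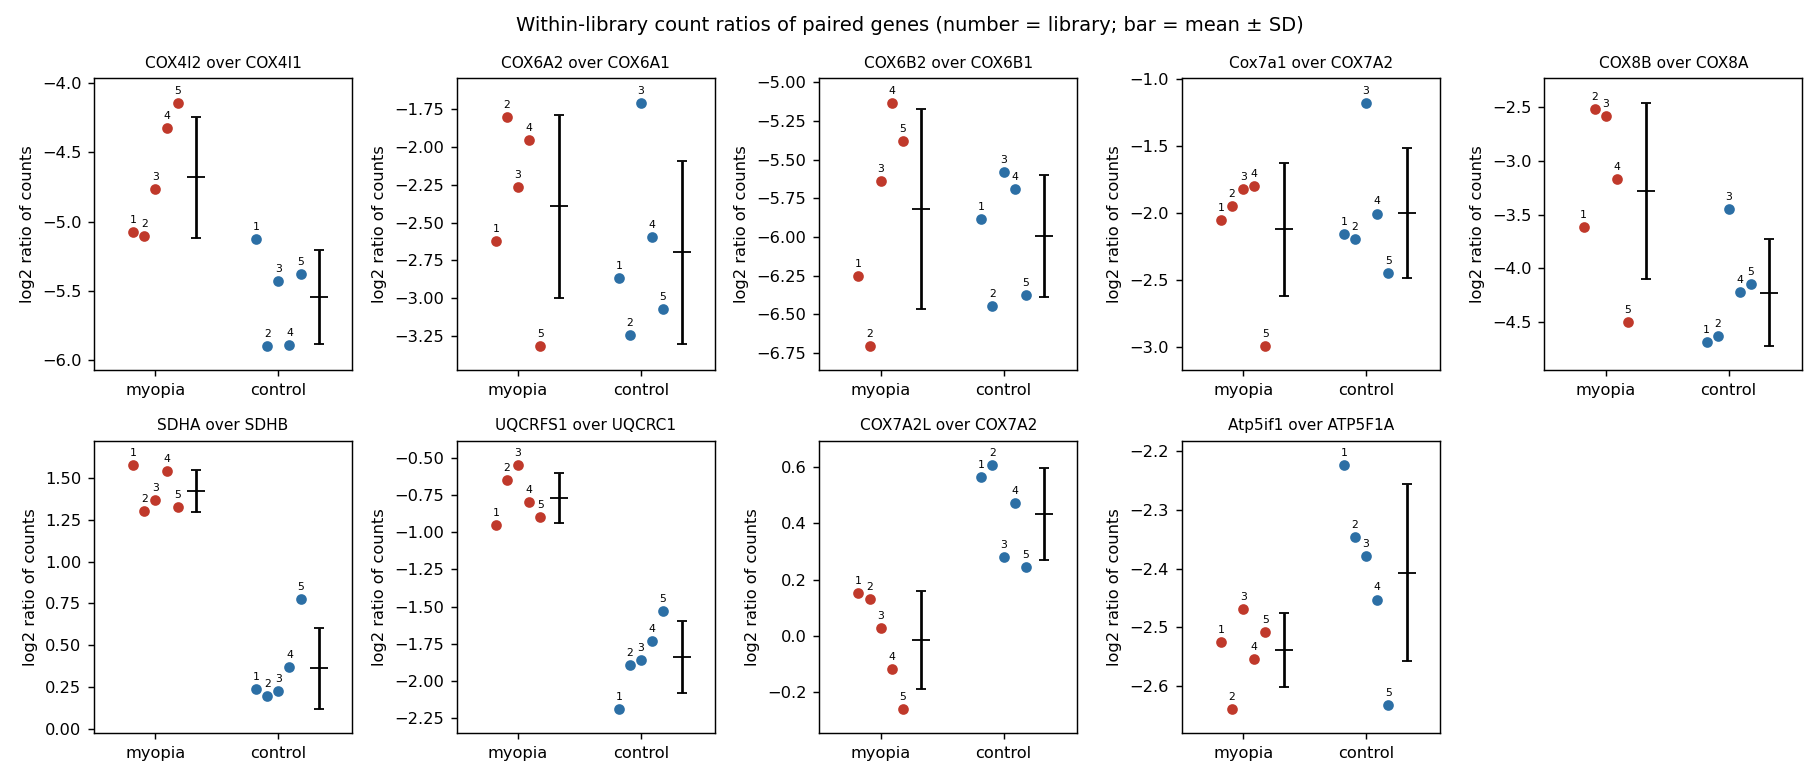
Log2 ratio of the counts of 2 genes within each library (vertical axes, scaled separately), for 9 pairs, in myopia and control libraries, with the mean ± SD of 5 libraries. SDHA over SDHB, UQCRFS1 over UQCRC1 and COX4I2 over COX4I1 lie higher in myopia and COX7A2L over COX7A2 lower, each without overlap.

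For the counts that follow, 35.1% of all genes tested were called lower and 36.9% higher. Complex I of the same respiratory chain was mostly lower too. Of its 38 subunit genes tested (NDUF symbols), 34 fell, 1 rose and 3 did not pass. The median log2 fold change of these genes was -0.945, against -0.87 for the members of complexes II to V. Other genes of the same pathway moved in both directions. Of 42 assembly factors for complexes II to V, 24 fell, 8 rose and 10 did not pass. Their median log2 fold change was -0.45. UQCC3, a complex III assembly factor, COA3, a complex IV factor, and COA8 fell with log2 fold changes of -1.74 ± 0.15, -1.25 ± 0.11 and -1.41 ± 0.13. LYRM7, which in human and yeast carries the Rieske protein before it is inserted, rose by 3.06 ± 0.25, with 6.14 CPM in myopia and 0.732 CPM in control (group means). Of 17 genes of ubiquinone synthesis and electron carriers 8 fell and 3 rose, with a median of -0.24. Cycs, the cytochrome c that links complexes III and IV, rose (0.49 ± 0.14, edgeR adjusted p = 0.00519), as did COQ3, a ubiquinone methyltransferase (3.30 ± 0.28). ETFB, a subunit of the electron transfer flavoprotein, and Coq8a fell (-1.51 ± 0.17 and -1.22 ± 0.15).

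Regulators of mitochondrial gene expression moved in both directions. Of 19, 6 fell, 8 rose and 5 did not pass, where 35.1% of all genes tested were called lower and 36.9% higher. The median log2 fold change of the list was 0.13. GABPA, a transcription factor of many respiratory genes, rose by 1.70 ± 0.16, the coactivator Ppargc1b by 1.29 ± 0.13, and TFAM, which packages and transcribes mitochondrial DNA, by 1.08 ± 0.11. POLRMT, the mitochondrial RNA polymerase, fell by 0.88 ± 0.10. Nrf1, like GABPA a transcription factor of respiratory genes, did not pass (-0.06 ± 0.09, edgeR adjusted p = 0.534). Of 20 other mitochondrial genes (import channels, chaperones, membrane shape) 9 fell, 4 rose and 7 did not pass (median -0.19). In that list Phb2 and PHB, the prohibitins, and Mfn2 fell (-1.20 ± 0.10, -1.42 ± 0.13 and -0.69 ± 0.07), and Mfn1, an outer membrane fusion protein like Mfn2, rose (1.16 ± 0.09). VDAC1, the main outer membrane channel, and CS (citrate synthase) did not pass (-0.04 ± 0.09 and 0.15 ± 0.10, edgeR adjusted p = 0.707 and 0.186).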

How the data were processed

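RNA of 10 scleral samples was sequenced. The authors deposited raw read counts per gene symbol, per the file headers and the whole-number values. For the aligner, the counter, the annotation and strandedness: not given in the sources used here. The submitters' processing notes name GRCm38 and mm10, mouse builds, with no role given, so no coordinates are used. How reads of paralogues, pseudogenes and overlapping genes were assigned is unknown, so levels of isoform pairs are uncertain. Of 47 members, 19 symbols were matched in a guinea pig RefSeq table (mCavPor4.1).

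From the counts, 437 lines without a symbol (0.751% to 0.824% of counts in myopia, 1.18% to 1.69% in control) were left out. Each line was its own gene, and the highest-mean line of a symbol was used. edgeR 4.0.16 in R 4.3.3 (filterByExpr with minimum count 10 and total 15, TMM factors, robust glmQLFit, glmQLFTest, group only) tested 14683 genes, with Benjamini-Hochberg adjustment over all of them and a threshold of 0.05. SE was derived from the log2 fold change and its F statistic (change over root F). Principal components and complex levels used log2 CPM with a prior count of 2. Ratios used counts plus 0.5. Simulated data were used to check the gene test. Replicate pairs differed beyond counting noise (ratio of chi-square to its degrees of freedom 18.1 to 117), so none was counted as a copy. The biological coefficient of variation was 0.204.

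The members, lists and pairs were chosen with earlier results of these data known. Named genes were, per complex, the 3 lowest and the highest fold change, all genes called higher, not called or not tested, the ratio pairs, and at most 4 called genes of each other list. COL1A1, COL1A2, DCN, PDGFRA, Tnmd, LEP, Cycs, Nrf1, VDAC1 and CS were named after their values were seen. Alternatives were other scalings (RLE, upper quartile, total count), filters, DESeq2 1.42.0, limma-voom (limma 3.58.1), 1 surrogate variable (sva 3.50.0), a replicate block, summed lines and leaving out libraries.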

Additional observations from a re-analysis of the deposited data

Results flagged for a closer look

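Among 110 sets of 5 libraries checked (each tested member and each ratio in each group), 5 held a library whose gap to its nearest neighbour was over 0.71 of the range of the set. Chance alone gives about 1 in 20. Control library 3 stood highest in 4 of them, with 105.1 CPM for COX6A2 (next 51.7 CPM), 49.2 CPM for Cox7a1 (next 23.6 CPM), 28.1 CPM for COX8B (next 12.9 CPM) and 531.9 CPM for ATP5F1B (next 465.8 CPM). The summed skeletal muscle markers were also highest in that library, at 12840 CPM. In myopia library 5 the log2 ratio of Cox7a1 over COX7A2 was -2.99, and the next lowest was -2.05 in myopia library 1. The summed muscle markers were lowest in myopia library 5, at 4068 CPM. The part of muscle in these values was not tested.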

How the results depend on the processing

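Over 23 alternatives, 1025 of 1058 values of single members kept their direction and their side of the threshold. With the sign kept, 21 lost the call and 3 gained one, and 9 changed sign. Some of those 9 also crossed the threshold. Under total-count scaling ATP5F1A, ATP5F1B, ATP5F1C, UQCRFS1 and UQCRB lost their calls with the change of sign, and SDHA gained one. Scaling by total count alone moved results most: 2751 genes were then called lower (5149 with TMM factors) and 4 members higher. Under that scaling 1 complex II gene was lower and 2 higher, and 6 complex III genes were lower and 1 higher. For complex IV 10 genes were lower, and for complex V 10 were lower and 1 higher under this scaling. The signs of ATP5F1A (0.011), ATP5F1B (0.018), ATP5F1C (0.071), COX8B (0.051), UQCRFS1 (0.16), UQCRB (0.18) and SDHA (0.415) turned under it, and that of SDHA also with upper-quartile factors (0.035). The scaling itself moves all genes by the same amount within a library. Of all calls 73.5% were higher under it, against 51.2% with TMM factors. UQCRFS1 and UQCRB also lost their calls with upper-quartile factors (-0.21 and -0.19, adjusted p = 0.084 and 0.107). Members called lower numbered 37 to 40 when 1 library was left out. UQCRC2 ranged from -0.0032 to 0.13.

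Over single libraries left out, the ratio of COX4I2 over COX4I1 ranged from 0.73 to 0.97 (adjusted p from 0.0179 to 0.0714), Cox7a1 over COX7A2 from -0.24 to 0.093, COX8B over COX8A from 0.76 to 1.26 and Atp5if1 over ATP5F1A from -0.19 to -0.086. Without control libraries 4 and 5, COX4I2 over COX4I1 stood at 0.80 and lost its call, and Atp5if1 over ATP5F1A at -0.22 gained one. Those libraries hold the lowest control ratios of Atp5if1 over ATP5F1A (0.183 and 0.161). Leaving them out therefore had to widen that difference, and the gained call is no further support. The cause of the lost call was not tested. The replicate numbers did not pair the libraries (correlations of same-numbered deviations from -0.129 to 0.013, and 0 of 5 myopia libraries best matched by their own number). With the replicate block in edgeR, 10103 genes were called in place of 10561, with 40 members lower and 1 higher. In the ratio test the replicate block keeps the differences of 0.86 (COX4I2 over COX4I1), 1.06 (SDHA over SDHB), 1.07 (UQCRFS1 over UQCRC1) and -0.45 (COX7A2L over COX7A2), but 5 pairs are too few for it to reach the threshold.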
